A study of Mus musculus with 65 samples.

Results

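These are the genes whose transcripts were found in a larger share of non-label-retaining than of label-retaining hematopoietic stem cells of old mice. A gene belonged to the set if it lay on an autosome, had a value above 0 in at least 6 of 28 non-label-retaining cells, and had a larger share of those cells above 0 than of the 37 label-retaining cells. The genes were thus chosen by their detection in these cells. The rule gave 145 genes of 1878 that met the minimum of 6 cells (7.72%), out of 18036 genes in the table and 6826 with any count. The other 1733 genes, found in an equal or larger share of label-retaining cells, are called reference genes here and are given for comparison. Because the shares chose the genes, the shares and levels of the set are a description throughout. The test of levels across all genes is given for the whole table and supports nothing about the set.

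The cells were single long-term stem cells from the flushed bone marrow of mice older than 20 months that were double heterozygous for SCL-tTA and H2B-GFP. After lineage depletion they were sorted for Sca-1, Kit and CD150, with little or no CD34 and without Flk2 and CD48. All cells of both groups were then held overnight at 3% oxygen in medium with no added growth factor. The 37 GFP-positive cells are the label-retaining group (9, 9, 10 and 9 cells in biological repeats 1 to 4) and the 28 GFP-negative cells the non-label-retaining group (8, 4, 6 and 10 cells). RNA was amplified with the SMART-Seq v4 kit, and each value is an estimated count of reads per gene and cell. The labels do not say how many mice a repeat holds, how long the label was chased, or whether a GFP-negative cell lost its label or never carried it.

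In this reporter a transactivator under an SCL promoter, active in blood stem and progenitor cells, drives a histone fused to GFP. Once the label is switched off, each division shares the fluorescent histone between the daughter cells, so a bright cell has divided rarely. Stem cells that rest hold little RNA, and in single cells a transcript present in few copies is caught in some cells and missed in others. A share of cells with a value above 0 therefore reflects both how many cells hold a transcript and how deeply each was sampled.

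The median total was 264894 counts in label-retaining cells (lowest 27954, highest 20516069). In the non-label-retaining group it was 118056 (lowest 86, highest 661078), and 4 of those cells lay under 10000. Genes above 0 numbered 1924 ± 446 in a label-retaining cell and 1090 ± 277 in a non-label-retaining one (SD over repeats, n = 4), so a gene of the set goes against the direction of most genes. Among the stem cell markers, Hlf had a value in 31 of the 37 and 12 of the 28 cells, Gata2 in 24 and 10, Meis1 in 24 and 12 and Ifitm3 in 17 and 6. Hoxb5 was found in 2 and 0 cells and Fgd5 in 1 and 1, while Slamf1, the gene of the sorted CD150 protein, was at 0 in all. The neutrophil markers Elane, Mpo and Ltf and the macrophage markers Csf1r, Adgre1 and Fcgr3 were at 0 in all 65 cells. Other markers of these lists were found in some, Prtn3 in 1 and 1, Camp and Ngp in 1 and 0 each, Lyz2 in 3 and 0 and Cd68 in 7 and 0. Of the megakaryocyte markers, Vwf was found in 16 and 8 cells, Itga2b in 11 and 2 and Gp9 in 0 and 0. Of the stromal markers, Col1a2 was found in 18 and 11, Pdgfrb in 0 and 1, and Cxcl12 and Col1a1 in no cell. Of the dendritic markers, Siglech was found in 6 and 4, and Flt3 and Itgax in no cell. The 1878 genes lie on 14 autosomes. Genes of chromosomes 2, 3, 4, 15 and 16 were not analysed here, so the counts over lists and families cover a part of the genome.

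Some libraries resembled each other closely, and this bears on low values. Of 2080 pairs of cells, 9 had a correlation of log2 (count + 1) above 0.8, against a median of 0.359 over all pairs. All 9 lay within a repeat, and no median was taken over such pairs alone. The closest were label-retaining cells 20, 21 and 22 of repeat 3 (0.985, 0.964 and 0.963). Label-retaining cell 3, the deepest library, and non-label-retaining cell 3 of the same repeat reached 0.922 across the groups. In 512 genes outside the set, 1 cell held at least 1000 counts and no other cell reached 5% of that value. Such a gene had a value above 0 in 62.5% of libraries with the next library number in the labels, in 24.2% at distances of 3 to 5, and in 13.4% at distances over 10. Neighbouring numbers mostly share group and repeat, and the fall with distance was not tested within a group and repeat. Of these genes, those that peaked in label-retaining cell 17 of repeat 2 were all found (100%) in the next library, cell 18. The median over libraries of that repeat was 13.79%. For label-retaining cell 8 of repeat 1 these values were 100 and 19.7%. For label-retaining cells 4, 5, 7 and 11 the highest share lay in a library not next in number. The same held for non-label-retaining cell 17. For the genes of the set, 1055 of 1511 values above 0 in non-label-retaining cells (69.8%) and 930 of 1652 in label-retaining cells (56.3%) lay under 1% of the highest value of the same gene. For the reference genes these percentages were 69.9 and 52.0. The part of shared reads in the shares below was not tested, and counts over the whole set are therefore given also with stricter limits. Cells per gene are cells with a value above 0 unless a limit is named.

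**Figure D1:**
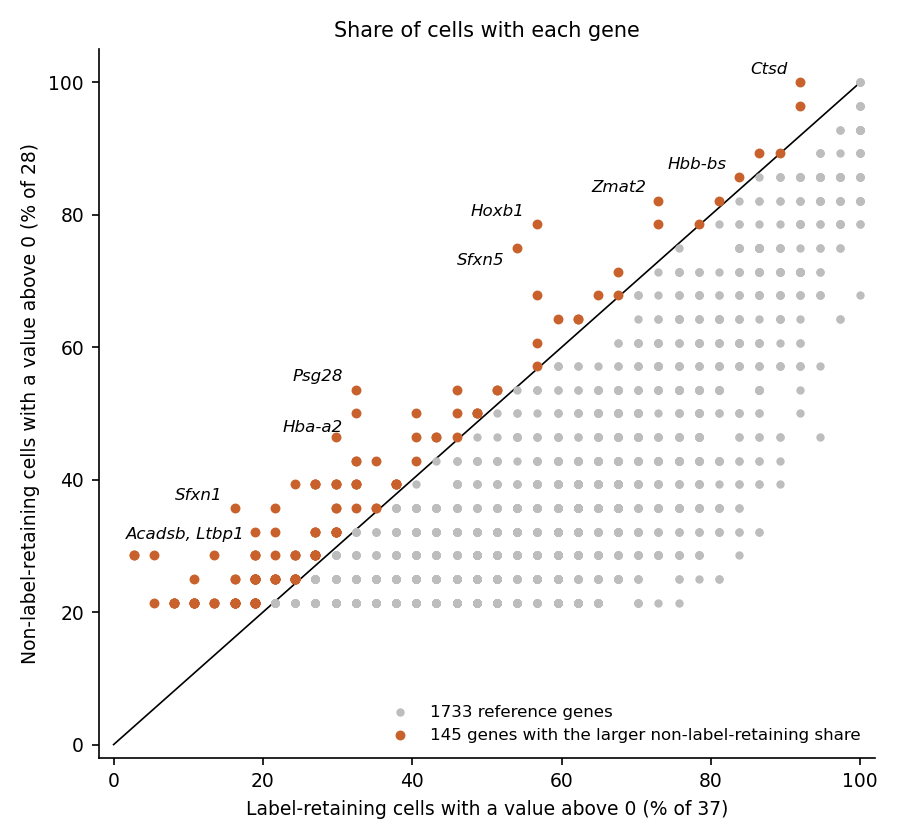
Share of cells with a value above 0 for each of the 1878 genes, in label-retaining cells on the x axis and in non-label-retaining cells on the y axis. The line marks equal shares. The 145 genes of the set lie above the line by the rule that chose them, most of them close to it. The differences of the labelled Acadsb and Ltbp1, 25.9 points each, are the largest.

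The excess of the set was small for most genes. The difference between the shares, non-label-retaining minus label-retaining, ran from 0.0965 to 25.9 percentage points with a median of 5.21, against a median of -20.9 for the reference genes. It exceeded 10 points in 32 genes and stayed under 1 point in 15. A total of 30 genes sat at the minimum of 6 non-label-retaining cells. Just inside the limit lay Sec61a1, the pore of the endoplasmic reticulum translocon, with 33 of 37 and 25 of 28 cells (0.0965 points). Inside it as well were Hjurp, the chaperone of the centromeric histone (29 and 22 cells, 0.193 points), and 4930452N14Rik (25 and 19, 0.29 points). Just outside, Malat1, Inpp4a, Ogfrl1 and Slx1b had values in all cells of both groups, and Adssl1 lay at -0.193 points with 8 and 6 cells.

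The 4 repeats did not carry the excess evenly. A larger share in non-label-retaining cells was seen in all 4 repeats for 3 genes of the set (0.160% of the 1878 genes) and for 0 reference genes. In 3 of 4 repeats it was seen for 48 genes of the set and 15 reference genes (3 or 4 repeats together, 3.51% of the 1878). The rule fixes part of this contrast, since it used the same cells. Repeat 3 had the larger share in 100 of the 145 genes (69.0%) with a mean difference of 14.9 points, the highest of the 4 repeats by both measures. Repeat 1 had 90 genes and 6.36 points, and repeat 2 had 86 genes and 11.4 points. Repeat 4 went the other way, with 47 genes (32.4%) and a mean difference of -2.93 points. The reference genes differed between repeats as well. Of these, 6.81, 32.4, 28.4 and 9.00% had the larger non-label-retaining share in repeats 1 to 4. Their mean differences were -29.6, -12.0, -11.3 and -26.5 points. The set thus lay above the reference genes in each repeat, repeat 4 included, and the rule bears on this. Repeats 1 and 2 rest on 8 and 4 non-label-retaining cells.

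Hoxb1, Sfxn5 and Sfxn1 had the larger share in all 4 repeats. Hoxb1 (identifier 15407, chromosome 11, 96365746 to 96368254 in mm10), an early homeobox patterning gene, was found in 21 of 37 and 22 of 28 cells. By repeat it was found in 44.4, 44.4, 80 and 55.6% of label-retaining and 75, 50, 100 and 80% of non-label-retaining cells. Its values ran from 1 to 9 in both groups, with a median of 2 in each, so that no cell of either group reached 10 counts. Sfxn5 (94282, chromosome 6, 85213049 to 85333482), a mitochondrial sideroflexin, was found in 20 and 21 cells, in 33.3, 66.7, 60 and 55.6% against 62.5, 75, 100 and 70%. Its highest values were 13.5 in a label-retaining and 13 in a non-label-retaining cell. Both genes were thus low wherever they were found, and the groups overlapped in value. Neither gene has a dominant cell.

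Sfxn1 (14057, chromosome 13, 54071656 to 54108346), which carries serine into mitochondria, was found in 6 label-retaining and 10 non-label-retaining cells, but its level pointed the other way. Label-retaining cells held 9618, 8140 and 2 counts in repeat 1, 17184 in repeat 2, and 1 count each in repeats 3 and 4. Non-label-retaining cells held 107, 1 and 1 in repeat 1, 6, 5 and 5 in repeat 2, 4 and 1 in repeat 3, and 2 and 1 in repeat 4. The 3 high label-retaining cells stood far above every non-label-retaining cell. At 1% of the highest value Sfxn1 was found in 3 label-retaining and 0 non-label-retaining cells.

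**Figure D2:**
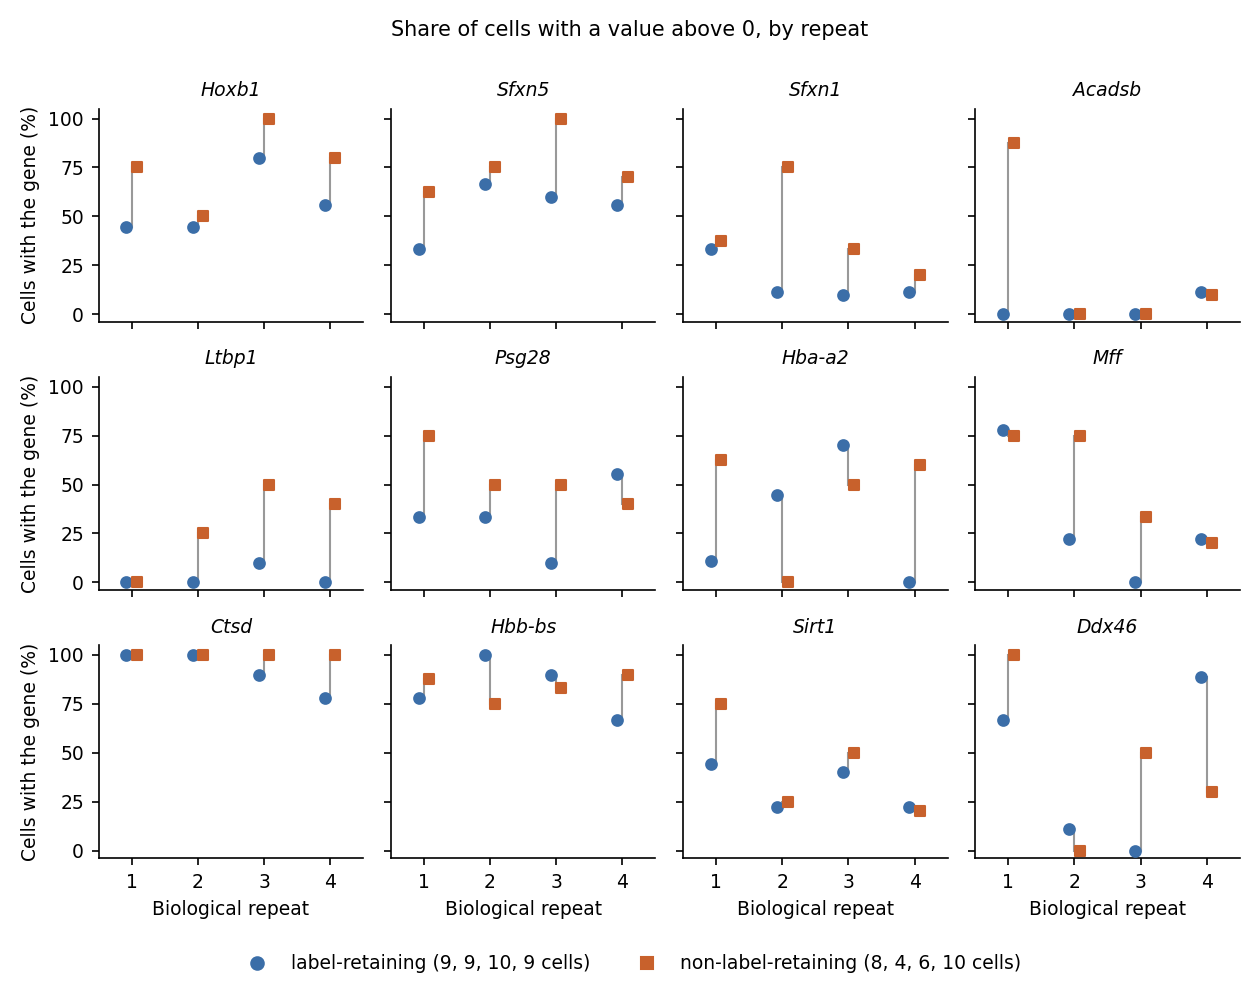
Share of cells with a value above 0 in each biological repeat for 12 genes of the set (circles, label-retaining; squares, non-label-retaining; the line joins both groups of a repeat). Hoxb1, Sfxn5 and Sfxn1 lie higher in non-label-retaining cells in each repeat, whereas the excess of Acadsb sits in repeat 1, where 7 of 8 cells held it.

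A cell's number of genes from the set followed its number of genes in general. Label-retaining cells held 10 to 88 of the 145 genes (median 43) and non-label-retaining cells 4 to 92 (median 53.5). Over cells the number of genes of the set and the number of all genes correlated with r = 0.858 in the 37 label-retaining and 0.866 in the 28 non-label-retaining cells, as a description of libraries that differ in depth. Averaged over repeats, a label-retaining cell held 31.0% ± 7.91 of the set and 61.3% ± 9.03 of the reference genes, and a non-label-retaining cell 38.4% ± 9.12 and 41.5% ± 7.94 (SD, n = 4). The set made up 2.42% ± 0.111 of the genes found in a label-retaining cell and 5.74% ± 0.562 in a non-label-retaining cell. Of the counts it took 4.07% ± 1.62 and 5.94% ± 2.53, ranges that overlap. A larger share of the set than of the reference genes was held by 11 of 28 non-label-retaining and 0 of 37 label-retaining cells. The groups were closer in the set than in the reference genes. The rule fixes the direction of the difference in each but not its size.

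**Figure D3:**
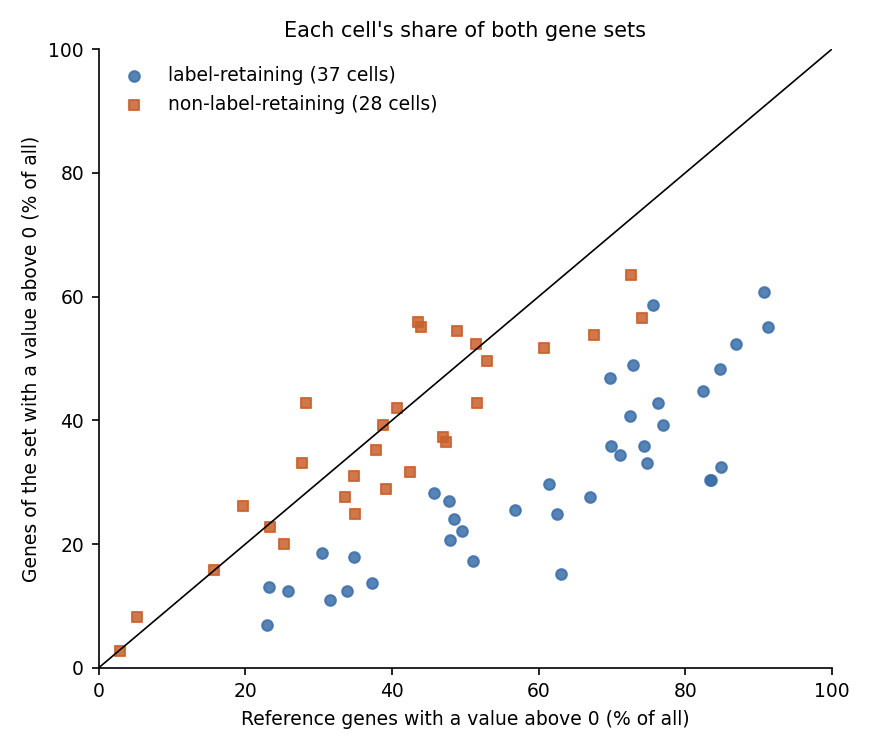
Percentage of the 145 genes (y axis) against the percentage of the 1733 reference genes (x axis) found in each cell; the line marks equal percentages. Both rise together across cells, and 11 of 28 non-label-retaining cells but 0 of 37 label-retaining cells lie above the line.

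The genes of the set were found at low values, and lower in non-label-retaining cells. Among values above 0 the median was 6 in the label-retaining group and 2.29 in the other, against 14.4 and 4 for the reference genes. Values of 10 counts or more made up 43.4% and 21.8%. In 112 of 145 genes (77.2%) the median over the cells with a value was lower in the non-label-retaining group, and in 23 it was higher. In the reference genes it was lower in 85.3%. A total of 38 genes had 10 counts in no non-label-retaining cell, and 12 had 10 counts in no cell at all.

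At 1 count or more, 137 of the 145 genes had the larger share in non-label-retaining cells (8.31% of the 1878 genes did). At 10 counts or more 32 did (4.79% of the 1878), 101 had the larger share in label-retaining cells and 12 were equal. When cells were thinned to 10000 counts, 116 of the 145 had the larger non-label-retaining share (80%) against 26.0% of the 1878 genes. This left out the 4 cells under that total, all of them non-label-retaining. Leaving them out without thinning, the rule gave 254 of 1823 genes (13.9%). With values of at least 1% of the gene's highest value the same rule gave 37 genes of 400 (9.25%), 28 of which belong to the 145. With 5% it gave 37 of 144 genes (25.7%), 17 of which belong to the 145. By these limits 57 and 47 of the 145 genes had the larger non-label-retaining share. Without the shallower cell of each closely correlated pair 118 did.

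**Figure D4:**
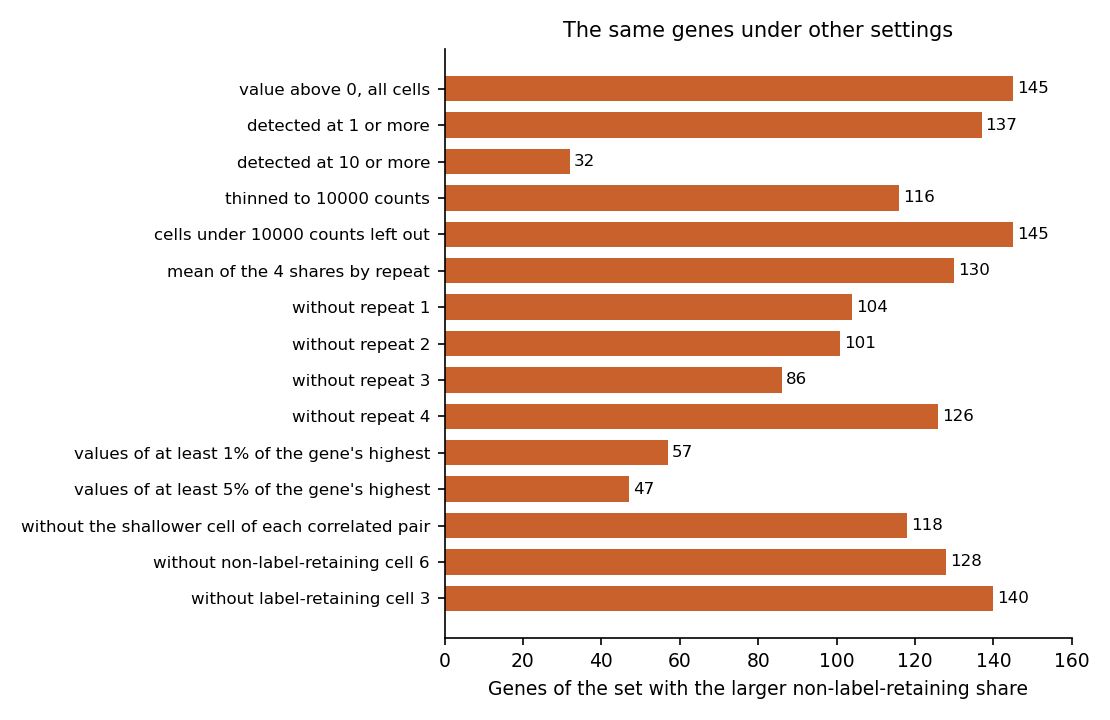
Number of the 145 genes with the larger share in non-label-retaining cells under each setting; bars start at 0. The number is 145 by the rule itself, 86 without repeat 3 and 32 when a value must reach 10 counts.

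Only 9 of the 145 genes had the larger non-label-retaining share in each of 14 other settings. The settings that change the minimum of cells were left out, and no minimum was applied to this count. These were Acadsb, 6430562O15Rik, Sfxn5, Tarsl2, Cxxc1, Zbtb18, Nemp1, Cables1 and Sirt1. They were singled out after their values were seen, and most rest on few cells. At 5% of the gene's highest value Acadsb and Zbtb18 had 0 label-retaining and 1 non-label-retaining cells. Tarsl2, Nemp1 and Cables1 had 1 and 1, Cxxc1 and 6430562O15Rik 1 and 2, Sirt1 0 and 2, and Sfxn5 19 and 19. Acadsb had the larger share in 1 of 4 repeats, and 6430562O15Rik, Cxxc1 and Zbtb18 in 2. Tarsl2 encodes a threonyl-tRNA synthetase, Nemp1 a protein of the inner nuclear membrane and Cables1 a binding partner of cyclin-dependent kinases.

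The functions of the set were described in 12 groups made by hand once the members were known, which hold 101 genes. The other 44 genes fit none of them. Mitochondrial proteins formed the largest group with 16 genes and a median difference of 10.6 points. How many of the 1878 genes encode such proteins was not counted. After thinning 13 of the 16 had the larger share, near the 80% of the whole set. Of the 16, 7 had the larger share in 3 or 4 repeats. At 1% of the gene's highest value 6 had it, against 57 of the 145. The group covers 2 sideroflexins, the mitochondrial ribosome (Mrps27 in 8 label-retaining and 10 non-label-retaining cells, Mrpl22 in 9 and 7), and complex I with its assembly factors (Ndufs8 in 10 and 11, Ndufaf8 in 4 and 6, Ndufaf3 in 11 and 9). It also holds the complex III core subunit Uqcrc2 (17 and 15), the import receptor Timm50 (4 and 6), the haem A enzyme Cox10 (23 and 18), the protease Clpp (13 and 10) and the haem pathway enzyme Ppox (6 and 6).

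Acadsb (66885, chromosome 7, 131410601 to 131446211), an enzyme of isoleucine breakdown, had with Ltbp1 the largest difference, 25.9 points. It was found in 1 of 37 label-retaining cells, at 7 counts in repeat 4. Of the 8 non-label-retaining cells of repeat 1, 7 held it, at 5235, 68, 29, 9, 4, 2 and 1 counts, and 1 of 10 in repeat 4 at 1 count. The gene was thus a repeat 1 gene of non-label-retaining cells, and without repeat 1 the difference was 1.43 points. Its 5235 counts lay in non-label-retaining cell 6. That cell held the highest value of 11 genes of the set (Acadsb, Ddx46, Ecd, Ifi27, Lin37, Mboat7, Mrps27, Plcl1, Rbsn, Tead2 and Uqcrc2). The other 7 non-label-retaining cells of repeat 1 held on average 79.2% of these 11 genes, the label-retaining cells of repeat 1 43.4%, and non-label-retaining cells of repeats 2 to 4 29.5, 25.8 and 14.5%. The rule bears on these shares. Ifi27, Tead2 and Lin37 were found in non-label-retaining cells of repeat 1 alone. Acadsb, Mboat7, Rbsn and Mrps27 likewise met the minimum of 6 cells only with the cells of repeat 1. The contrast between repeat 1 and the others is thus partly fixed by how the genes were chosen. For 9 genes outside the set with a peak of at least 1000 counts in cell 6, the means were 74.6 and 59.3% in repeat 1. They were 16.7, 27.8 and 17.8% in non-label-retaining cells of repeats 2 to 4. Without cell 6 the difference of Acadsb was 23.2 points, and 128 of the 145 genes had the larger non-label-retaining share.

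Mff, which recruits the fission machinery to mitochondria, was found in 11 and 13 cells. Its label-retaining values reached 15348, 2654 and 2530 in repeat 1 and 6826 in repeat 2, whereas its highest non-label-retaining values were 269 and 78 in repeat 1 and 11 in repeat 2. Uqcrc2 stood at 1350 counts or more in 5 label-retaining cells of repeat 1 and at 6564 in 1 non-label-retaining cell, with 78 as the next. Both had the lower median value in non-label-retaining cells, Mff at 67 and 2 counts and Uqcrc2 at 276 and 5. On the list of mitochondrial respiration, 12 genes met the minimum of cells and Uqcrc2 alone belonged to the set (8.33%, against 7.72% of the 1878 genes).

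Of 12 sequence-specific transcription factors, all 12 had the larger share after thinning (116 of the 145 did). At 1% of the gene's highest value 9 had it (57 of the 145). At 10 counts or more 6 of these factors had it (32 of the 145), and 6 had it in 3 or 4 repeats. Hoxb1 led them. Zbtb18, a transcriptional repressor, was found in 3 and 6 cells with values of 1 to 2 counts in label-retaining cells and up to 1356 in a non-label-retaining cell. Tead2, a partner of the Hippo pathway coactivator, was found in 5 and 6 cells, and Eomes, a T-box factor, in 6 and 7. Hsf2, a heat shock factor, was found in 18 and 14 cells with no value of 10. The group also holds Smad2, a mediator of TGF-beta signals (9 and 8), Foxk2 (8 and 7), Hivep2 (16 and 13) and the zinc finger genes Zfp825, Zfp689, Zfp62 and Zfp715. Without repeat 2, 4 of the 12 had the larger share (101 of the 145 did).

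Chromatin proteins numbered 10. Sirt1 (93759, chromosome 10, 63319005 to 63339035), a deacetylase that uses NAD, was found in 12 of 37 and 12 of 28 cells. Its label-retaining values were 538, 5, 1 and 1 in repeat 1, 2 and 1 in repeat 2, 52, 31, 30 and 2 in repeat 3, and 53 and 1 in repeat 4. Its non-label-retaining values were 12754, 194, 42, 24, 15 and 2 in repeat 1, 1 in repeat 2, 14289, 6 and 2 in repeat 3, and 3 and 1 in repeat 4. A pair of non-label-retaining cells thus held more than 20 times any other value. Cxxc1, which binds unmethylated CpG and recruits a histone methyltransferase, was found in 9 and 11 cells with up to 6858 and 37063 counts. The histone gene H3f3b, found in 34 and 27 cells, had median values of 972 and 38 counts. Dot1l (10 and 8), Mllt6 (12 and 11) and Ruvbl1 (14 and 11) reached at most 3, 6.5 and 205 counts in non-label-retaining cells and 969, 1873 and 14033 in label-retaining cells.

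Both haemoglobin chains in the set are red cell transcripts. Hba-a2, an alpha chain, was found in 12 and 14 cells. In label-retaining cells it was found in 1, 4, 7 and 0 cells of repeats 1 to 4, and in non-label-retaining cells in 5, 0, 3 and 6. Hbb-bs, a beta chain, was found in 31 and 24 cells, with median values of 48 and 199.5 counts, and it was 1 of 23 genes with the higher median in non-label-retaining cells. The other erythroid markers Hba-a1 (36 and 24 cells) and Alas2 (4 and 3) had the larger share in the label-retaining group. The 4 erythroid markers took 0 to 92.5% of a label-retaining cell's counts (median 0.0185%) and 0 to 7.93% of a non-label-retaining cell's (median 0.279%). Igk, the kappa light chain locus of B cells, was found in 14 and 11 cells, at up to 56598 counts in label-retaining cells against 4 in the others. The B cell marker Cd79a was found in 8 and 3 cells and Cd74 in 8 and 6. Whether blood cell RNA from outside the sorted cell took part in these counts was not tested.

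**Figure D5:**
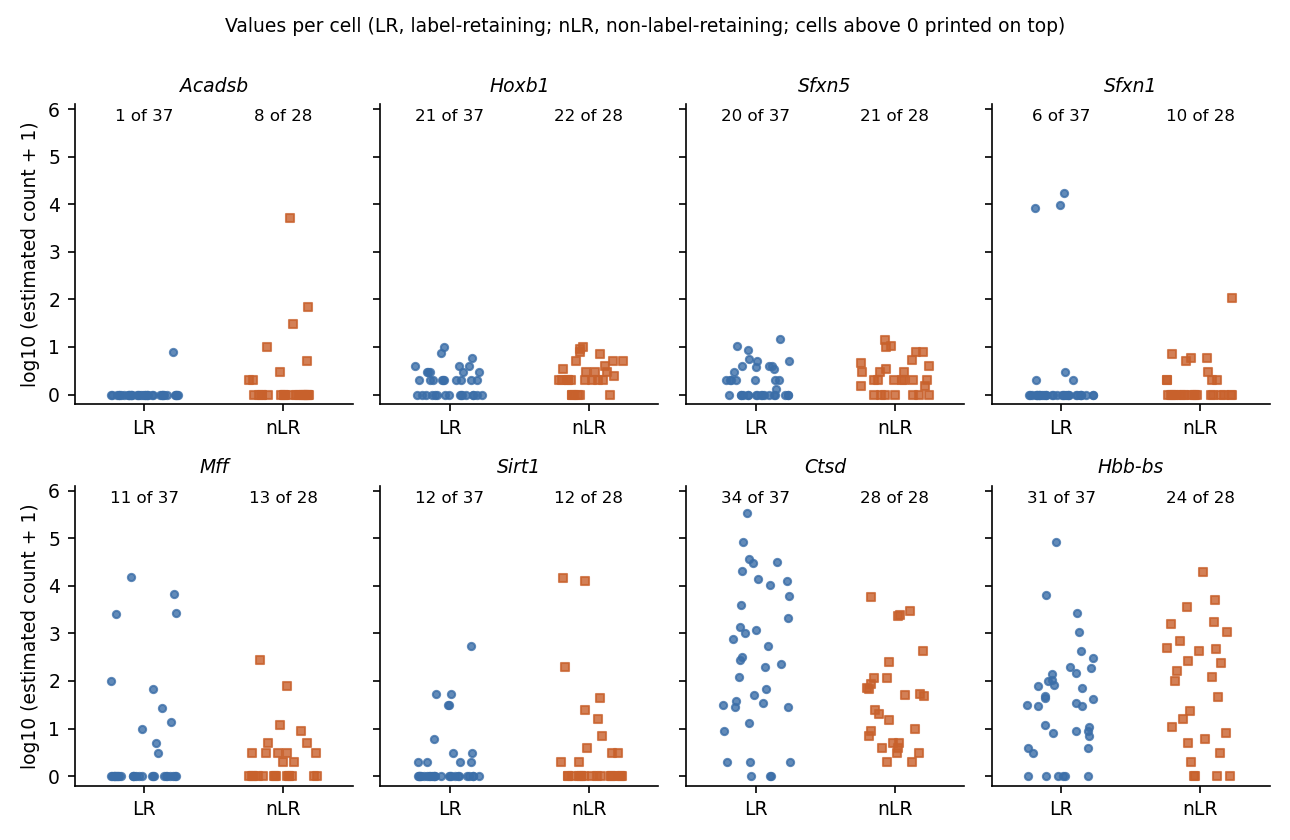
Estimated counts per cell on a log10 (count + 1) scale for 8 genes of the set, with the number of cells above 0 printed on top. Hoxb1 and Sfxn5 stay under 20 counts in all cells, Sfxn1, Mff and Ctsd reach far higher values in label-retaining cells, and Sirt1 reaches its highest values in 2 non-label-retaining cells.

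Lysosome and autophagy genes numbered 5, with a median difference of 4.05 points and none in 3 or 4 repeats. Ctsd, a lysosomal aspartic protease, was found in all 28 non-label-retaining and in 34 of 37 label-retaining cells, and its 3 missing cells were in repeats 3 and 4. Its values ran from 1 to 342824 counts in label-retaining cells (median over cells with a value 426) and from 1 to 5938 in non-label-retaining cells (median 35.4). At 10 counts or more it was found in 30 and 17 cells, so its share then lay 20.4 points lower in non-label-retaining cells. Ctsl, a lysosomal cysteine protease, was found in 17 and 14 cells, and at 10 counts or more in 14 and 2. Atg4b, which processes the Atg8 proteins of autophagosomes, was found in 11 and 10 cells, Tecpr1 in 11 and 9 and the cholesterol transfer protein Stard3 in 7 and 6.

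Membrane traffic gave 7 genes with a median of 2.22 points. Rbsn, a Rab effector of early endosomes, had 4 and 7 cells, and Dennd6a, an activator of a Rab protein, 18 and 14 cells. Dennd6a was at 3354 counts in 1 non-label-retaining cell of repeat 4 and at 10.8 or less in the others, against up to 107 in label-retaining cells. The 7 genes of small GTPase and MAP kinase signalling run from the exchange factor Sos1 (5 and 6 cells) through the kinase Mapk3 (12 and 11) to the GTPases Rras (9 and 7) and Rap1b (21 and 19). All 7 had the lower median value in non-label-retaining cells, as did 112 of the 145 and 85.3% of the reference genes. At 10 counts or more 0 of 7 had the larger share, against 32 of the 145 and 4.79% of the 1878. Counts over 7 genes do not set this group apart from the set. For Rap1b 17 label-retaining and 5 non-label-retaining cells reached 10 counts.

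RNA proteins were the second largest group with 14 genes. Ddx46, a splicing helicase, was found in 15 and 14 cells, in all 8 non-label-retaining cells of repeat 1 and 8 of 9 label-retaining cells of repeat 4. Tnrc6a, a scaffold of microRNA silencing, was found in 23 and 18 cells, with 19 and 6 at 10 counts or more. Zmat2 (27 and 23 cells) and Cnbp (30 and 23), a nucleic acid binding protein, were among the most widespread genes of the set. Without repeat 3 the group reached the larger share in 5 of 14 genes, against 86 of the 145. At 1% of the gene's highest value it did so in 3, against 57 of the 145. On the list of RNA splicing and processing 22 genes met the minimum of cells, and 0 of them belonged to the set (7.72% of the 1878 genes did).

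Cell cycle genes numbered 7, all 7 with the larger share after thinning and without repeat 4, where 116 and 126 of the 145 had it. It was 3 of 7 without repeat 1, without repeat 2 and at 1% of the gene's highest value, and 2 of 7 at 10 counts or more. Over the set these 4 settings gave 104, 101, 57 and 32 of the 145. Ccnd2, a D-type cyclin, was found in 24 and 19 cells, with up to 13836 counts in label-retaining cells against 287 in the others. Hmmr, a mitotic spindle protein, was found in 10 and 8 cells, E2f7, a repressor of cell cycle genes, in 10 and 9, and Lin37, a subunit of the DREAM complex, in 9 and 7. On the fixed list of cell cycle genes 4 met the minimum of cells and 1, Ccnd2, belonged to the set (7.72% of the 1878 genes did). The 7 genes of ubiquitin ligases and the proteasome included Dcaf6 (27 and 22 cells, 81.6% of values fractional) and the proteasome ATPase Psmc4 (18 and 14). Those of lipid synthesis and transfer were Sptlc1, Cert1, Mboat7 and Cdipt, with 7 or 8 non-label-retaining cells each.

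A group of 10 genes is best known from nerve, skin, placenta, matrix or muscle. Its median difference was 10.1 points, and 7 of the 10 had the larger share in 3 or 4 repeats. After thinning and without repeat 1 all 10 had it, where 116 and 104 of the 145 did. Without repeat 3 and without repeat 4 it was 7 of 10, at 1% of the gene's highest value 8, and at 10 counts or more 3. Over the set these were 86, 126, 57 and 32 of the 145. Ltbp1 (268977, chromosome 17, 75005480 to 75392512), which stores latent TGF-beta in the matrix, was found in 1 and 8 cells. It had 2 counts in a label-retaining cell of repeat 3. In non-label-retaining cells it had 1 count in repeat 2, 3, 1 and 1 in repeat 3, and 2, 1, 1 and 1 in repeat 4. Lrrtm4, a synaptic adhesion gene, was found in 2 and 6 cells at 1 or 2 counts. Both were thus single reads or nearly so. Psg28, a pregnancy-specific glycoprotein, was found in 12 and 15 cells, with values up to 93.3 in label-retaining cells against 1202 in the others. It belongs to a family of near copies, so its counts are uncertain. The others were Syn3 (10 and 11), Map1b (11 and 11), Slc17a8 (15 and 12), Gsdma (7 and 7), Adam12 (7 and 7), Lmcd1 (4 and 6) and Nectin4 (7 and 6).

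The 44 genes in no group had 6 to 19 non-label-retaining cells and a median difference of 4.25 points, and 16 had the larger share in 3 or 4 repeats. 6430562O15Rik, a long noncoding RNA gene, had the third largest difference of the set, 23.2 points, with 2 and 8 cells. Its 1991 bases on chromosome 13 (99410836 to 99412826) lie within Mrps27 (99344767 to 99415562), another gene of the set, and all 10 of its cells also had Mrps27. With a kit that does not mark strand these 2 genes cannot be told apart there, and 70% of the values of 6430562O15Rik were fractional. Dusp23, a phosphatase, was found in 12 and 12 cells and reached at most 2.83 counts. Gpx1, a glutathione peroxidase, was found in 19 and 15 cells and reached 10 counts in 15 and 5. Ptpn2, a phosphatase of cytokine signalling, was found in 21 and 16 cells and Plcl1 in 21 and 17.

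Of 15 fixed lists, members appeared in 5: mitochondrial respiration (1 of 12 genes that met the minimum of cells), cell cycle (1 of 4), chromatin regulators (1 of 6, Sirt1), membrane trafficking (1 of 9, Dennd6a), and extracellular matrix and secretion (1 of 4, Psg28). The lists of ribosome biogenesis (7 genes), translation factors (12), DNA repair and replication (3), ubiquitin and proteasome (9), cytoskeleton (5), G protein signalling (6), kinase signalling (9), immune genes (10) and stem cell regulators (5) held 0. Of the 1878 genes 7.72% belonged to the set, and at that share lists this short hold few members. Cytosolic ribosomal protein genes numbered 43 among the reference genes (2.48%) and 0 in the set. Mitochondrial ribosomal protein genes numbered 12 (0.692%) and 2 (1.38%), and numbered zinc finger genes 37 (2.14%) and 5 (3.45%).

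Properties that the rule did not use were set beside those of the reference genes. Of the 145 genes, 141 were protein-coding (97.2%, reference 94.5%), and 3 were long noncoding RNA genes (74 in the reference). Overlap with another gene that had counts was found for 27 genes (18.6%, reference 20.3%). Fractional values, as arise when a read is shared between genes, made up over 50% of the values in 21 genes (14.5%, reference 32.2%). The median gene length was 24335 bases, against 23654.

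The highest value of a gene over all cells was at least 1000 counts in 104 genes of the set (71.7%, reference 72.6%), and under 100 in 26 (17.9%, reference 10.1%). It lay in a non-label-retaining cell for 37 of the 145 genes (25.5%) and for 14.5% of the reference genes, and the rule bears on this. Label-retaining cell 3 held it for 30 genes and label-retaining cell 17 of repeat 2 for 20. For 19 genes with such a peak in cell 17, among them Mapk3, Timm50 and Tuba4a, the 4 non-label-retaining cells of repeat 2 held on average 67.1% of the genes, the other label-retaining cells of that repeat 28.9%, and non-label-retaining cells of repeats 1, 3 and 4 30.3, 22.8 and 17.9%. The rule bears on these means, since it chose the 19 genes by a larger non-label-retaining share. For 247 genes outside the set with such a peak in cell 17, the same means were 58.3 and 36.7% in repeat 2. In non-label-retaining cells of repeats 1, 3 and 4 they were 22.7, 16.5 and 11.7%. In 58 of the 247 no other cell reached 5% of the peak. For these 58 the median, not the mean, non-label-retaining cell held 61.2% in repeat 2 and 6.90% in other repeats. The library with the next number, label-retaining cell 18, held all 58. Why these genes recur in the same repeat was not tested.

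Levels were compared over the sums of counts of each group and repeat, 4 against 4. With edgeR's quasi-likelihood test without a term for the repeat, 0 of 2786 genes passed (0.00%), and the smallest Benjamini-Hochberg adjusted p was 0.319. An unadjusted p under 0.05 was reached by 181 genes that were higher and 125 that were lower in the label-retaining group. With the repeat as a block in the same test these were 214 and 9, 0 genes passed, and the smallest adjusted p was 0.493. By DESeq2 11 genes passed (0.395%), of which 6 were higher. Of the 145 genes, 106 passed the filter on low values. The log2 fold changes of members, label-retaining minus non-label-retaining, ran from -10.63 ± 3.41 (SE) for Nectin4 to 6.20 ± 2.69 for Igk. Their median was -0.65, against 1.14 for all tested genes, as a description of the contrast that chose them. It turned to 0.52 with total counts in place of TMM and to 0.82 without non-label-retaining repeat 1. Few libraries carried the extremes. Nectin4 stood at 13776 CPM (counts scaled to a fixed library total) in non-label-retaining repeat 4 and under 1 CPM in the other 3, and at 0.136, 0, 0 and 8.78 CPM in label-retaining cells. Sirt1 stood at 8641, 3.96, 27842 and 10.5 CPM in non-label-retaining and 8.25, 0.163, 27.2 and 23.7 CPM in label-retaining repeats. Igk stood at 3145 CPM in label-retaining repeat 2 and at 17.5 CPM or less in each of the other 7 sums. Repeats 3 and 4 of the non-label-retaining group had TMM scaling factors of 0.285 and 0.224, and the other 6 sums 1.43 to 2.06, which raises each CPM of those 2 repeats.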

How the data were processed

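The authors deposited estimated counts per gene and cell, made from reads on the mm10 build, which the submitters' processing notes name together with DESeq. Which aligner, counter and annotation made them is not given in the sources used here. These values are unscaled although the authors' file is called normalized: totals per cell differ from 86 to 20516069, and 65.4% of values in the median cell are whole within 0.0001. The members, lists and groups were chosen with earlier results of these data known. Identifiers were matched to RefSeq for GRCm38.p6, 16262 of 18036. A further 11 genes without a chromosome met the minimum of 6 cells and 0 of them had the larger non-label-retaining share.

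All libraries carry the label of the same sequencing run. A value above 0 counted as found. Thinning used the expected chance of being found at 10000 counts, which left 61 of 65 cells. The 4 cells left out were non-label-retaining. Sums per group and repeat were rounded and tested with edgeR 4.0.16 in R 4.3.3 (TMM, robust quasi-likelihood fit, Benjamini-Hochberg, threshold 0.05) on genes with a mean of at least 10 counts per cell and a count in at least 10 cells. DESeq2 1.42.0, other scalings and filters, each repeat left out, other limits of detection and cells left out were the alternatives. Estimated counts of reads are not molecules, and where repeats came from separate mice is not stated, so p-values measure the spread between these repeats. Deviations of the 2 sums of a repeat correlated in all 4 repeats (r = 0.555, 0.293, 0.172 and 0.158). Sums of unlike repeats reached 0.146 (label-retaining repeat 4 with non-label-retaining repeat 3), close to the values of repeats 3 and 4. Pairing by repeat number is thus weakly borne out there. The main test had no term for the repeat, and the replicate block, which pairs the sums by repeat number, was an alternative. The test was checked on simulated counts. Named genes were the 10 with the largest difference, the 10 in most non-label-retaining cells, the 10 with 10 counts in most of them, those with the larger share in 4 repeats, the 5 on each side of the limit, and members of fixed lists. Single genes withheld for evaluation are not reported here. Further genes were named from the groups after their values were seen.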

Additional observations from a re-analysis of the deposited data

Results flagged for a closer look

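Among 62 groups of 4 to 10 values, 1 value stood apart from the rest by Dixon's criterion in 10. The criterion's rate of about 1 in 20 is for continuous values and does not apply here. Shares of few cells often tie, and equal shares in the other repeats flag any single share that differs. Most are shares of cells in 1 of 4 repeats. Acadsb was found in 87.5% of non-label-retaining cells of repeat 1, and in 11.1% of label-retaining cells of repeat 4. Ltbp1 was found in 10% of label-retaining cells of repeat 3 and Sfxn1 in 33.3% of those of repeat 1, each the highest of 4. Low shares stood apart for H3f3b in label-retaining repeat 3 (70%) and non-label-retaining repeat 4 (90%), and for Zmat2 in label-retaining repeat 4 (55.6%). Cnbp was lowest in non-label-retaining repeat 4 (50%), and Hjurp highest in non-label-retaining repeat 3 (100%). In non-label-retaining repeat 1, cell 2 held 38 of the 145 genes, the fewest of its 8 cells.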

How the results depend on the processing

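The number of genes that meet the rule was 145 of 1878 and lay between 129 and 185 with 1 count as the limit, after thinning, with the mean of the shares by repeat, and without the correlated cells, non-label-retaining cell 6 or label-retaining cell 3. It was 17 with 10 counts as the limit, 224 and 60 with a minimum of 4 and 10 cells, 254 without cells under 10000 counts, 37 at 1% and 37 at 5% of the gene's highest value, and 97 to 247 with 1 repeat left out. Which genes meet it also moved: the 147 after thinning come from 480 genes that meet the minimum of cells (30.6%) and 20 of them belong to the 145, and of the 247 without repeat 4, 95 do. The alternatives by highest value, by correlated pairs and by single cells were chosen after seeing the data. Of 28 named members the sign of the difference changed in 17 at 10 counts, in 16 at 1% and 17 at 5% of the highest value, in 7 after thinning and in 4 to 8 with a repeat left out. The number of genes called stayed at 0 in each edgeR fit, including the replicate block (smallest adjusted p = 0.493), and was 11 with DESeq2. The median log2 fold change of the tested members was -0.65, turned to 0.52 with total counts, and ran from -1.93 to 0.82 with 1 sum or repeat left out, the highest without non-label-retaining repeat 1. With the replicate block it was -1.18. A count of 0 does not show that levels were alike.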
